A study of Mus musculus with 9 samples.

Results

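The major histocompatibility complex (MHC) class I and class II genes, which present peptides to T cells, were examined across the immune, other somatic and germ cells of the juvenile mouse testis. The set held 41 of the 32285 genes in the count matrices. Of these, 34 have a symbol that begins with H2-, the mouse MHC prefix, and B2m, Cd74, Ciita, Nlrc5, Tap1, Tap2 and Tapbp were added by name. In the GENCODE vM21 annotation 37 of the 41 genes lay on chromosome 17, where the mouse MHC is. The prefix also takes in H2-Ke6, a steroid dehydrogenase gene of that region with no role in antigen presentation.

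The testes of C57BL/6 mice at postnatal day 24 (PND24) were dissociated whole and profiled by 3′ droplet single-cell RNA-seq, with 1 library per mouse. Control testes came from 4 mice, NELF-B cKO testes from 2 and TDP-43 cKO testes from 3. The controls were littermates and non-littermates. Each cKO mouse carried a null allele and a floxed allele of Nelfb (NELF-B cKO) or of Tardbp (TDP-43 cKO) together with Stra8-iCre. NELF-B is a subunit of the complex that holds RNA polymerase II paused near promoters, and TDP-43 is a nucleic acid binding protein. Stra8-iCre acts in spermatogonia (SG) and their progeny, so the floxed allele of somatic and immune cells is not its target, although these cells carry the null allele.

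As background, a class I molecule is a polymorphic heavy chain (H2-K1 and H2-D1 in this strain) bound to the light chain B2m. It is loaded in the endoplasmic reticulum with peptides that the TAP1 and TAP2 transporter brings in and that tapasin (Tapbp) helps to fit, and NLRC5 activates its genes. A class II molecule pairs an alpha and a beta chain (H2-Aa with H2-Ab1, and H2-Eb1), travels with the invariant chain Cd74 and exchanges its peptide with the help of H2-DM, which H2-O restrains. CIITA activates the class II genes and is held to dendritic cells, macrophages, B cells and other antigen presenting cells. The testis is known as a site where immune responses are restrained, with macrophages in the interstitium and most germ cells behind the Sertoli cell barrier.

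The promoters of these genes carry known elements, and the promoters of 6 genes to which the results return are shown for that reason. A Y box has the letters CCAAT, or ATTGG on the other strand. An X box was searched as AGNAACNGATG, or CATCNGTTNCT on the other strand. Each line gives the 150 bases before the transcription start, 5′ to 3′ on the strand of the gene, from RefSeq on GRCm38.p6, and capitals mark a Y box or an X box. H2-Aa lies at chr17:34287824-34287973 (minus strand), H2-Eb1 at chr17:34305717-34305866 (plus), H2-DMb1 at chr17:34153041-34153190 (plus), B2m at chr2:122147537-122147686 (plus), H2-K1 at chr17:34000348-34000497 (minus) and H2-D1 at chr17:35262944-35263093 (plus).
H2-Aa: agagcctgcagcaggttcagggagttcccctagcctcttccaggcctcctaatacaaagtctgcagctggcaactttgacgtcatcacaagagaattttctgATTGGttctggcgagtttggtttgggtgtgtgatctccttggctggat
H2-Eb1: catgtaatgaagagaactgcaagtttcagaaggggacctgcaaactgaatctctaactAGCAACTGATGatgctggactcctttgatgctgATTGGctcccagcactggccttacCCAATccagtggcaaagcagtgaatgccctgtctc
H2-DMb1: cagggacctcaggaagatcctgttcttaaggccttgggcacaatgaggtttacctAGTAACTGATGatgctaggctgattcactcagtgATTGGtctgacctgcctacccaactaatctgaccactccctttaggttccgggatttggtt
B2m: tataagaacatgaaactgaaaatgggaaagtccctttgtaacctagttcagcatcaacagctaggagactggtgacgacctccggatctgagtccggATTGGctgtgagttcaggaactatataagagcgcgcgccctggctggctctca
H2-K1: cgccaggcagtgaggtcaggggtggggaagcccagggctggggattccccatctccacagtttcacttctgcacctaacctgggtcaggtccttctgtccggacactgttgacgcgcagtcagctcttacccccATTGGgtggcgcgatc
H2-D1: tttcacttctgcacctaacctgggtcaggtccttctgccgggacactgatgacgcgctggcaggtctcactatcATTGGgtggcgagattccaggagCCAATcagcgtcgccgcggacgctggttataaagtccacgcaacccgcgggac

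Of the 41 genes, 34 had a promoter in the RefSeq table, and the others were Cd74, Ciita, H2-Ab1, H2-Q1, H2-T24, Nlrc5 and Tap2. Within the 250 bases before the start, 31 of the 34 held a Y box on either strand, 91.2%, against 37.5% of 27025 genes. The 3 without one were H2-M5, H2-Q10 and H2-T3. The X box letters stood in 3 of the 34, H2-DMb1, H2-Eb1 and H2-Eb2 (8.82%), against 0.311% of all genes. An interferon response element, GAAANNGAAA or TTTCNNTTTC on the other strand, stood in B2m, H2-T22 and H2-T23 (8.82%), against 3.46% of all genes. The letters of the X box and of the Y box cannot overlap. Such a match is a description of the letters and not a site of binding.

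The libraries held 119203347 to 159407373 unique molecular identifiers (UMIs), each a transcript molecule, and 37.5% to 78.3% of them lay in the 45132 barcodes kept as cells (more than 1000 genes detected, mitochondrial share below 10%). Pairs of libraries shared at most 0.355% of the barcodes of the smaller one. Clustering was done without the 41 genes, so that they could not define the cells in which they were then measured. Germ cells of the cKO mice in which the targeted gene had been detected were dropped, 233 in NELF-B cKO and 3110 in TDP-43 cKO. Of the 27665 cells in named clusters, the 24322 then left were 1356 immune, 8549 other somatic (Sertoli, Leydig, myoid, endothelial and interstitial) and 14417 germ cells. Levels are given in CPM, the UMIs of a gene per 1000000 UMIs summed over the cells of a type in a mouse. Because 3′ libraries with unequal capture do not give a level per length, levels are compared between cells and not between genes.

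The immune cells formed 3 clusters. Macrophages (468 cells) held F13a1 and Mrc1 at 1953 and 2166 CPM over all mice, against 19.8 and 431 CPM in the largest immune cluster. That cluster (829 cells) was led by Cxcl2, Cd14, Mgl2 and Il1b and is called the myeloid cluster here for those leading genes alone. A cluster of 59 cells held the T cell receptor genes Cd3g and Cd3e at 1741 and 303 CPM and the killer cell gene Nkg7, and is called the T and NK cluster. The myeloid and the T and NK clusters make up what is called the second immune type, since both took that name from the same markers. The B cell genes Cd79a, Cd79b and Ms4a1 were at most at 46.9 CPM in any of the 3 clusters over all mice. Germ cells comprised SG, early spermatocytes (SC) from preleptonema to zygonema, late SC in pachynema and diplonema, and round spermatids (RS).

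**Figure D1:**
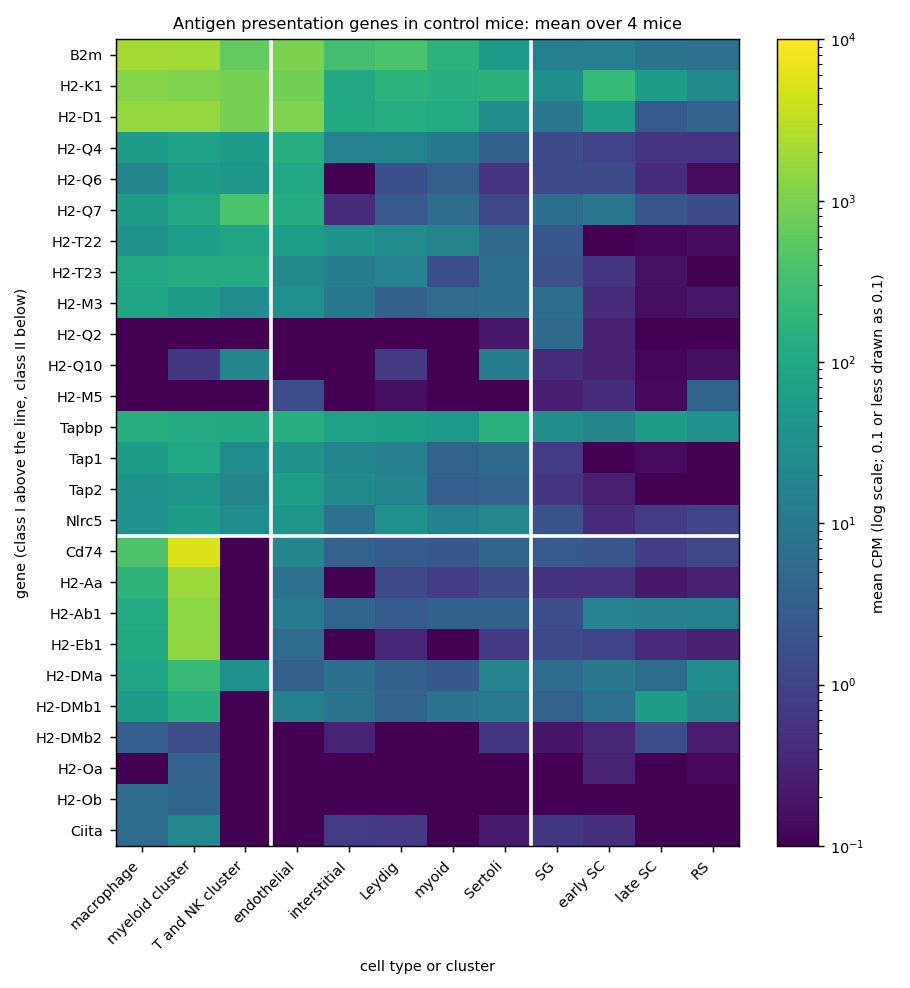
Mean level in CPM (colour, log scale, with 0.1 CPM or less drawn as 0.1) of 26 of the genes in 12 cell types or clusters of the control mice, over 4 mice and over 3 for the T and NK cluster. Most class I genes above the horizontal line are highest in an immune or the endothelial column, but Tapbp is highest in Sertoli cells, H2-Q2 in SG and H2-M5 in RS, and H2-Q10 stands out in Sertoli cells and, from 1 mouse, in the T and NK cluster. The class II genes below it are highest in the myeloid cluster, apart from H2-DMb2 and H2-Ob.

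In the control mice, most of the MHC genes that could be tested were highest in immune cells, intermediate in other somatic cells and lowest in germ cells. The exceptions were in both classes, with Tapbp and H2-Q10 among the class I genes and H2-DMa, H2-DMb1 and H2-Ab1 among the class II genes. Of the 41 genes, 23 passed the filter on low counts, and 21 of these differed between immune and other somatic cells with an adjusted p below 0.01 and 1 or more units of log2 change, 20 of them higher in immune cells. Of all 17551 genes tested 23.9% were called, 10.5% higher in immune cells. The median log2 fold change was 3.28 over the members that passed and 0.0062 over all genes. A gene that passed only through immune cells had to differ, so these counts describe the members that passed. Between other somatic and germ cells 18 of 23 were higher and 2 lower, where 60.5% of all genes were called (28.6% higher and 31.9% lower). The share of higher members thus stood above the background and that of lower members below it. Between immune and germ cells 21 of 23 were higher, where 43.3% of all genes were called, 20.4% higher. All p-values of these fits come from edgeR's quasi-likelihood test with the mouse as a block and Benjamini-Hochberg adjustment over all genes tested.

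The 18 genes that did not pass were sparse. H2-M1, H2-M9 and H2-M11 had no UMI in any kept cell, and 15 of the 41 genes, those 3 included, had fewer than 100 UMIs in all kept cells. Most of these belong to the M10 and other M, Q and T groups of non-classical class I genes. Overlap with other genes also limits what the counts can show: 5 of the 41 are overlapped by a gene on the same strand (Tapbp, H2-Ke6, H2-DMa, Cd74 and Nlrc5) and 13 by a gene on the other strand. The H2-Q and H2-T genes are near-identical copies whose reads can be split or lost, so their values are uncertain. H2-K1, H2-D1, H2-Aa, H2-Ab1 and H2-DMb1 overlap no other gene.

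B2m, the light chain of every class I molecule, stood at 2045, 1731, 2071 and 2112 CPM in the immune cells of the 4 control mice, in that order from replicate 1 to replicate 4. It stood at 354, 175, 258 and 269 CPM in their other somatic cells and at 10.9, 8.91, 9.8 and 9.72 CPM in their germ cells. The 3 classes did not overlap. The log2 fold change was 3.11 ± 0.17 (SE, n = 4) between immune and other somatic cells (edgeR adjusted p = 7.6e-10) and 4.75 ± 0.18 between other somatic and germ cells (edgeR adjusted p = 3.4e-12).

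The heavy chains followed the same order with a smaller step down to germ cells for H2-K1. H2-K1 stood at 1224, 713, 1376 and 1191 CPM in immune, 182, 139.8, 195 and 271 CPM in other somatic and 78.3, 72.5, 75.4 and 73.6 CPM in germ cells. Its log2 fold change was 2.69 ± 0.18 for immune over other somatic and 1.38 ± 0.17 for other somatic over germ cells. H2-D1 stood at 1771, 1179, 1761 and 1611 CPM, 127, 79.1, 119 and 199 CPM and 13.2, 10.2, 12 and 13 CPM in the same classes. Its log2 fold changes were 3.81 ± 0.18 and 3.41 ± 0.17. All 4 calls had an edgeR adjusted p of at most 2.2e-06. For both heavy chains the lowest immune mouse, control replicate 2, was above the highest other somatic mouse.

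The genes that load class I molecules split. Tap1 and Tap2 encode the peptide transporter, and both were low in germ cells. Tap1 stood at 73.9, 65.6, 93.4 and 93.8 CPM in immune, 11.7, 10.4, 13.2 and 11.7 CPM in other somatic and a mean of 0.199 ± 0.0801 CPM (SD, n = 4) in germ cells, log2 fold changes of 2.95 ± 0.24 and 5.81 ± 0.27. Tap2 stood at 50.2, 32.1, 38.7 and 43.1 CPM in immune cells, with log2 fold changes of 1.78 ± 0.25 over other somatic cells and 7.99 ± 0.32 over germ cells. Tapbp (tapasin, overlapped by Zbtb22 on the same strand) was far more even. It stood at 131, 80.9, 153 and 135 CPM in immune, 89.8, 97.6, 119 and 135 CPM in other somatic and 39.6, 48.2, 42.3 and 45.5 CPM in germ cells. The immune and other somatic values overlapped, with a log2 fold change of 0.35 ± 0.19 (edgeR adjusted p = 0.16), while germ cells were lower than other somatic cells by a log2 fold change of 1.34 ± 0.17. Nlrc5, the activator of class I genes, stood at 33.5, 60, 68.4 and 41.3 CPM in immune and 16.2, 23.8, 32.6 and 29.4 CPM in other somatic cells, a log2 fold change of 1.17 ± 0.22 that was no longer called without control replicate 2.

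Among the other class I genes that passed, H2-Q4, H2-Q6, H2-Q7, H2-T22, H2-T23, H2-T24 and H2-M3 were all higher in immune than in other somatic cells. Their log2 fold changes ran from 1.66 ± 0.22 for H2-T22 to 4.24 ± 0.68 for H2-T24. H2-T24 had only 5, 8, 5 and 3 UMIs in immune and 0, 1, 3 and 9 in other somatic cells. It passed the filter through immune cells. H2-T23, which encodes the non-classical molecule Qa-1 that natural killer and T cells read, stood at 82.3, 109, 137 and 120.0 CPM in immune and 12.7, 10.9, 11.2 and 10.7 CPM in other somatic cells. H2-M3, which presents formylated peptides, had a log2 fold change of 3.28 ± 0.27 between these classes. H2-Q10, a secreted class I molecule, went the other way with 0, 1.39, 0 and 1.88 CPM in immune and 2.02, 10.3, 3.8 and 10.9 CPM in other somatic cells, -2.80 ± 0.73 in log2 (edgeR adjusted p = 0.0059). Its call was lost when any 1 control mouse was left out, with adjusted p between 0.017 and 0.036, and with DESeq2 (adjusted p = 0.017). Its other somatic UMIs came mainly from Sertoli cells, at 8.13, 19.5, 8.39 and 17.6 CPM, against at most 1.01 CPM in Leydig cells. H2-Ke6, the dehydrogenase gene, was not called between immune and other somatic cells, with a log2 fold change of -0.53 ± 0.25 (edgeR adjusted p = 0.11).

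**Figure D2:**
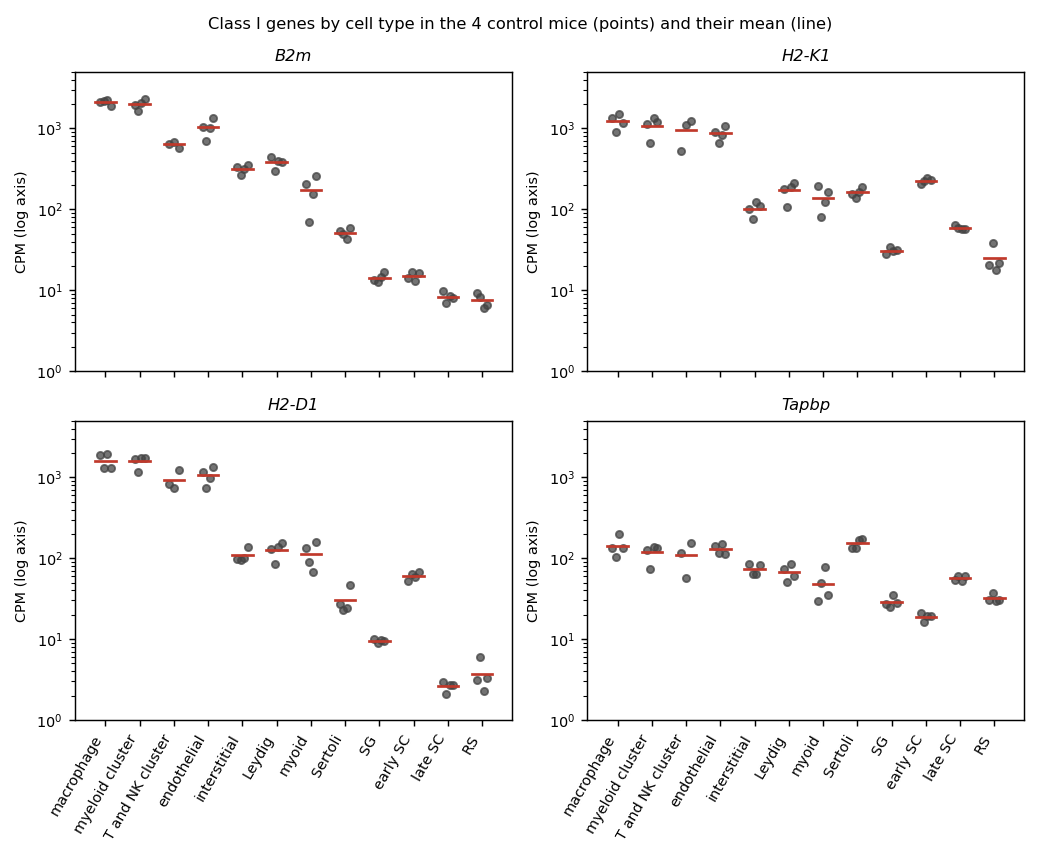
Levels in CPM on log axes of B2m, H2-K1, H2-D1 and Tapbp by cell type in the control mice, 1 point per mouse (3 mice in the T and NK cluster) with a line at the mean. For B2m, H2-K1 and H2-D1 the macrophage, myeloid and endothelial points lie above the other somatic and germ points, whereas those of Tapbp overlap with those of Sertoli cells.

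Of the other somatic types, endothelial cells, which line the vessels, had class I levels between those of the other types and those of immune cells or overlapping the latter. Within every control mouse Tap2, H2-Q4 and H2-Q6 were higher in endothelial than in immune cells, and no fit compared these 2 groups of cells. The comparison of endothelial cells with the mean of Sertoli, Leydig, myoid and interstitial cells called 11 of the 27 genes that passed, all higher, where 7.94% of all genes were called, 6.18% higher and 1.76% lower. Only control replicate 4 had the 20 endothelial cells needed for this fit, so a fit with at least 5 cells and all 4 control mice was added after the cell numbers had been seen, and it called 12 of the 23 genes that passed in it, all higher, where 16.7% of all genes were called, 7.54% higher and 9.13% lower. B2m stood at 1046, 704, 1019 and 1349 CPM in endothelial cells and at 445, 296, 391 and 389.6 CPM in Leydig cells, the makers of testosterone. The log2 fold change of B2m over the 4 other types was 2.76 ± 0.16, and 2.13 ± 0.14 with all 4 mice. H2-K1 stood at 896, 665, 839 and 1082 CPM and H2-D1 at 1151, 743, 989 and 1342 CPM in endothelial cells. Their log2 fold changes with all 4 mice were 2.28 ± 0.17 and 3.30 ± 0.16.

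The Q genes were also higher in endothelial cells, with log2 fold changes over the 4 other types, with all 4 mice, of 7.03 ± 0.51 for H2-Q6, 5.68 ± 0.42 for H2-Q7 and 3.25 ± 0.26 for H2-Q4. H2-Q6 stood at 61.5, 39.1, 119.9 and 154 CPM in endothelial cells and at most at 2.95 CPM in the Leydig cells of any control mouse, and it had no UMI in the interstitial cells of any of them. H2-Q7 stood at 70.3, 102, 108 and 201 CPM, against at most 3.93 CPM in Leydig cells. H2-Q4 stood at 114, 66.5, 198 and 154 CPM, against 14.6, 21.1, 25.4 and 11.8 CPM in Leydig cells, so that endothelial and Leydig values did not overlap for any of the 3. Tap2, at 79.1, 46.9, 48 and 65.7 CPM, was also higher, by 2.42 ± 0.53 in log2 in the fit with 1 mouse and by 2.27 ± 0.34 with all 4. Cd74 was called as well (3.65 ± 0.79, and 2.64 ± 0.70 with all 4 mice), yet its levels of 0, 23.5, 0 and 56.8 CPM included 2 mice with no UMI. Endothelial cells are few, 10 to 25 per control mouse, and the red cell transcript Hbb-bs reached 4259 CPM in them over all mice. The part of such RNA in these values was not tested.

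Sertoli cells, the nurse cells of the tubule, had the lowest B2m of the somatic types, with 53.3, 48.9, 42.5 and 58.4 CPM, and H2-D1 at 27.1, 22.9, 24.1 and 46.1 CPM. Their H2-K1, at 156, 138, 163 and 191 CPM, overlapped that of Leydig cells at 179.9, 108, 189 and 213 CPM. Tapbp in Sertoli cells, 134, 133, 169.5 and 174 CPM, overlapped the endothelial range and lay above that of Leydig cells. Interstitial cells had B2m at 332, 264, 316 and 355 CPM and myoid cells, the contractile cells around the tubule, at 207, 69.6, 156 and 258 CPM. For B2m, endothelial cells came first, then Leydig and interstitial cells, which overlapped each other, then myoid cells and last Sertoli cells, with no overlap between the other neighbours.

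The 5 largest log2 fold changes between immune and other somatic cells were those of class II genes and their activator. Cd74, the invariant chain, stood at 2267, 971, 5796 and 6002 CPM in immune cells and at 1.62, 3.38, 6.26 and 9.7 CPM in other somatic cells, a log2 fold change of 9.54 ± 0.37 (edgeR adjusted p = 1.3e-11). H2-Aa, an alpha chain, stood at 673, 304, 2005 and 2114 CPM in immune cells, 9.89 ± 0.28 in log2 above other somatic cells. H2-Ab1 and H2-Eb1, the beta chains, were higher by 8.03 ± 0.53 and 10.31 ± 0.47. Ciita, the class II activator, stood at 8.37, 4.18, 18.2 and 31.9 CPM in immune cells, 5.52 ± 0.79 in log2 above other somatic cells. In all 5 genes control replicate 2 was the lowest of the control mice, and replicates 3 and 4 were the highest. Outside immune cells some of these genes were near the floor. Ciita had 6, 3, 8 and 17 UMIs in immune and 2, 4, 2 and 0 in other somatic cells. H2-Aa had 1, 5, 9 and 17 and H2-Eb1 0, 3, 7 and 8 UMIs in other somatic cells. These 3 genes passed the filter through immune cells, so they had to differ and their calls are no support.

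Within the immune cells, class II levels separated the myeloid cluster from macrophages. H2-Aa stood at 1233, 394, 2886 and 2814 CPM in the myeloid cluster and at 58.5, 19.4, 192 and 444 CPM in macrophages. Cd74 stood at 4108, 1262, 8340.5 and 8157 CPM and 249, 51.6, 561 and 753 CPM in the same cells. In each control mouse the myeloid cluster was the higher, by more than 10 times for Cd74. The fit of the second immune type against macrophages called 4 of the 27 genes that passed, all higher, where 1.79% of all genes were called, 0.517% higher and 1.27% lower. They were H2-Aa (4.42 ± 0.46 in log2), H2-Ab1 (4.03 ± 0.69), Cd74 (3.87 ± 0.61) and H2-Eb1 (3.73 ± 0.64), and the call of Cd74 was lost with DESeq2 and without the mouse as a block. Macrophages reached 20 cells only in control replicate 1 (43 cells, against 9 to 13 in the others). The fit just given thus rests on 1 mouse for macrophages. With at least 5 cells and all 4 mice the log2 fold changes were 3.97 ± 0.27 for H2-Aa, 3.98 ± 0.39 for H2-Ab1, 4.19 ± 0.39 for Cd74 and 4.07 ± 0.35 for H2-Eb1. In that fit 6 of 23 genes were called, all higher, where 5.92% of all genes were called, 3.83% higher and 2.09% lower. They were the same 4 and H2-DMa (1.78 ± 0.30) and H2-DMb1 (1.69 ± 0.41), the peptide editor. Class I genes did not separate these cells: B2m had a log2 fold change of -0.03 ± 0.21 and H2-K1 of -0.35 ± 0.29, neither of them called.

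**Figure D3:**
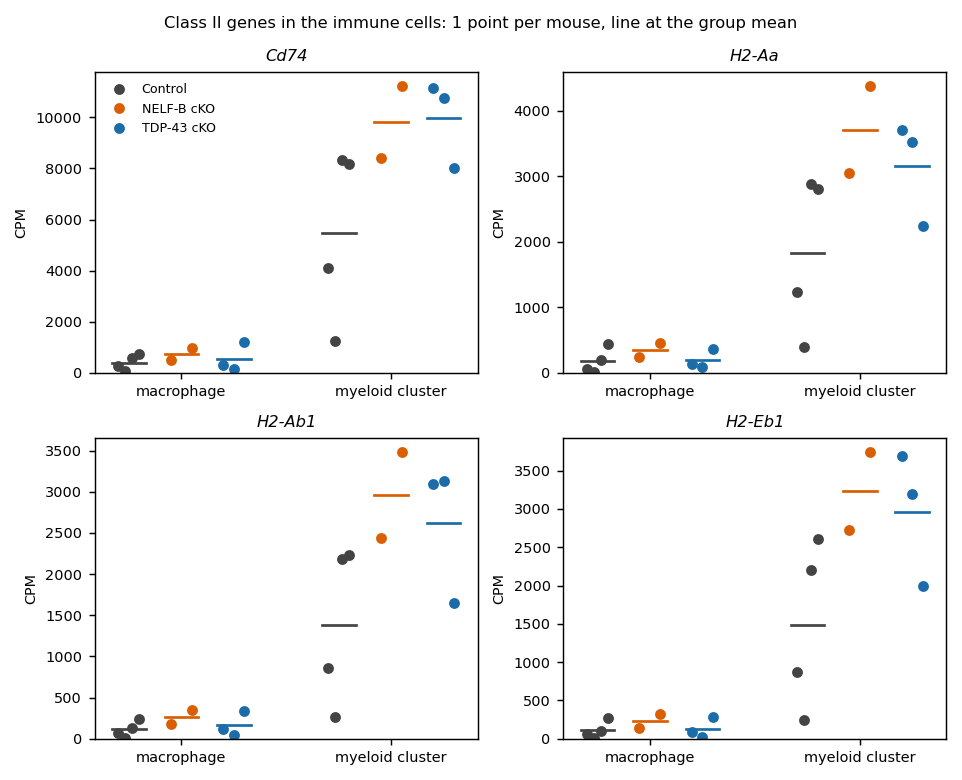
Levels in CPM of Cd74, H2-Aa, H2-Ab1 and H2-Eb1 in macrophages and in the myeloid cluster, 1 point per mouse coloured by genotype, with a line at the mean of the group. Within each control mouse the myeloid cluster lies above macrophages for all 4 genes. Over all mice the points of Cd74 do not overlap, whereas control replicate 2, the lowest point of the myeloid cluster for each gene, falls below the highest macrophage points of H2-Aa, H2-Ab1 and H2-Eb1.

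The share of single cells with at least 1 UMI of Cd74, H2-Aa, H2-Ab1 or H2-Eb1 gave the same order at a common depth of 2000 UMIs per cell. In the control mice 221 of 271 cells of the myeloid cluster had such a UMI, 81.5% (95% exact binomial interval 76.4% to 86.0%, counting error only). Per mouse the share was 86.8%, 53.4%, 93.2% and 96.8%, and the median cell held 7.5, 1, 32 and 29 class II UMIs. In control macrophages the share was 32.4% (24 of 74 cells), and 48.6% without thinning. In the T and NK cluster it was 0 of 12 control cells, which allows a share of up to 26.5% by the exact interval. Leydig cells, which should lack class II molecules, had 0.501% (2 of 399 cells, and 8.02% without thinning), and endothelial cells 5.56% (3 of 54). The median unthinned depth was 5015 UMIs in the myeloid cluster, 9048.5 in macrophages and 17137 in Leydig cells. The T and NK cluster, with no class II UMI, was shallower than these, at 3032.5 UMIs. The part of depth in these shares was not tested.

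The genes that act on class II molecules after assembly differed less between immune and other cells. H2-DMa, the alpha chain of the peptide editor, stood at 176, 123, 239 and 225 CPM in immune cells, 4.49 ± 0.22 in log2 above other somatic cells and 4.48 ± 0.20 above germ cells. Other somatic against germ cells was not called for H2-DMa (-0.01 ± 0.20, edgeR adjusted p = 0.98). H2-DMb1, one of its beta chains, stood at 94.9, 41.8, 141 and 169 CPM in immune and 12.1, 4.7, 7.37 and 6.52 CPM in other somatic cells, 3.99 ± 0.38 in log2. H2-DMb2, the other beta chain, stood at 4.19, 1.39, 2.28 and 0 CPM in immune cells. H2-Oa and H2-Ob, the restraining H2-O chains, had means of 2.55 ± 0.985 and 4.99 ± 4.01 CPM (SD, n = 4). H2-Oa had no UMI in control macrophages and a mean of 3.74 ± 1.09 CPM in the myeloid cluster. That mean rests on 1, 2, 1 and 2 UMIs, too few to separate the 2 kinds of cells.

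Germ cell levels were set against free RNA, which gives UMIs to cells that do not make a transcript. Free RNA was measured in the barcodes of 1 to 100 UMIs, and for 9 or 10 reference genes of macrophages and Leydig cells per control mouse the germ cell level was a median of 0.0404 to 0.134 of the free RNA level, with single reference genes reaching 0.571 to 0.852. The median ratio over the control mice was 0.0608 for H2-Aa, 0.0898 for Cd74, 0.135 for H2-Eb1 and 0.146 for Tap1, which are near or within that range. It was 0.399 for B2m, 0.533 for H2-D1, 0.754 for H2-Ab1 and 0.846 for H2-K1. For H2-DMb1 it was 1.03, and 0.833 to 1.32 in single control mice. In single control mice it reached 0.224 for H2-Aa, 0.154 for Cd74 and 0.271 for H2-Eb1, all under the highest single reference gene of each mouse. Their levels over all germ cells are not read as expression, and the part of free RNA in them was not tested. Set against the highest single reference gene of the same mouse, the ratio of H2-K1 and of H2-DMb1 was above it in 4 of 4 control mice, that of H2-Ab1 in 3, that of H2-D1 in 1 and that of B2m in 0. Tap1 was uneven, since it stood at 0.695, 0.993, 2.14 and 2.69 CPM in the SG cluster led by Glis3 and Ret, against 0.501 to 2.35 CPM in free RNA and a mean of 0.268 CPM in the other large SG cluster. In free RNA, H2-K1, H2-D1 and H2-Ab1 reached at most 93.8, 25 and 20.3 CPM in a control mouse.

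H2-DMb1 and H2-Ab1 were higher in germ cells than in other somatic cells. H2-DMb1 stood at 35.9, 43.5, 34.9 and 36.5 CPM in germ cells, -2.33 in log2 for other somatic against germ cells (SE 0.34, edgeR adjusted p = 1.2e-05). H2-Ab1 stood at 14.8, 14, 13.3 and 12.3 CPM in germ and 3.44, 2.06, 3.35 and 5.85 CPM in other somatic cells (-2.04 ± 0.48, edgeR adjusted p = 0.0011). In neither gene did the germ and other somatic values of the 4 mice overlap, although free RNA also held both genes, at 33.0 to 43.1 CPM of H2-DMb1 and 15.1 to 20.3 CPM of H2-Ab1 in the control mice. The part of free RNA in these germ cell levels was not tested. The alpha chain H2-Aa, the partner of H2-Ab1, stood at 0.0718 to 0.557 CPM in the same cells.

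These germ cell levels followed stage. Late SC against SG called 15 of the 27 genes that passed, 6 higher and 9 lower, where 60.1% of all genes were called (24.9% higher and 35.2% lower). RS against SG called 12, 4 higher and 8 lower, where 67.9% were called (36.4% higher and 31.4% lower). Both shares lie near or under the background, so the counts say nothing particular of MHC genes, and the values of single genes are given as a description of where each one stood. In the comparison of RS with SG another scaling (DESeq2 size factors) moved the median of all genes from 0.10 to 0.33 in log2, and it reversed no member that was called.

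H2-DMb1 was highest in late SC. It stood at 5.94, 1.99, 4.68 and 2.2 CPM in SG, 11.2, 4.04, 7.09 and 7.83 CPM in early SC, 58.5, 61.1, 53.5 and 55.6 CPM in late SC and 22.3, 22, 18.4 and 16.5 CPM in RS. Late SC were above SG by 4.63 ± 0.32 in log2 (edgeR adjusted p = 1.8e-15), with every late SC value above every value of the other stages. H2-DMa, which pairs with it, peaked later, at 29.1, 28.8, 30.1 and 22.1 CPM in RS against 6.6, 6.35, 6.31 and 3.57 CPM in SG (3.03 ± 0.24). H2-DMb2 was low, and higher in late SC than in SG (3.69 ± 0.57). H2-Ab1 rose from 1.54, 1.04, 1.74 and 1.79 CPM in SG to 14.9, 15.4, 18.2 and 16.5 CPM in early SC and stood at 17.6, 13.2, 14.2 and 12.8 CPM in RS (4.02 ± 0.43 over SG). Its RS level came mainly from the cluster led by Kcne3 and Tssk4, at 17.3 ± 3.75 CPM, and the other RS clusters were at 8.33 ± 1.65 and 3.06 ± 1.08 CPM (SD, n = 4).

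The class I heavy chains peaked in early SC. H2-K1 stood at 28.1, 33.8, 30.1 and 31.1 CPM in SG, 209, 224, 243 and 228 CPM in early SC, 63.3, 58.9, 56.5 and 57.9 CPM in late SC and 20.5, 38.7, 17.7 and 22 CPM in RS. In early SC it lay within the range of Leydig cells or above it. H2-D1 stood at 9.9, 9, 9.68 and 9.35 CPM in SG, 52, 63, 58.7 and 68.1 CPM in early SC and 2.93, 2.12, 2.69 and 2.7 CPM in late SC. The light chain did not share this peak: B2m stood at 13.2, 12.8, 14.6 and 16.6 CPM in SG and 14, 16.8, 13 and 16.3 CPM in early SC, which overlap. Tap1 was at most 0.16 CPM in the early SC of any control mouse. Early SC were not compared with SG in a fit of their own, so these stage values are descriptions.

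Other genes marked SG. H2-Q2, a little studied Q gene, stood at 4.62, 4.64, 5.77 and 6.05 CPM in SG and at most at 0.0599 CPM in late SC (-6.56 ± 0.65 in log2, edgeR adjusted p = 1.2e-09). H2-M3 stood at 8.14, 5.4, 4.57 and 5.91 CPM in SG and 0.12, 0.126, 0.17 and 0.203 CPM in late SC (-4.54 ± 0.36). H2-T22 and H2-T23 were lower in late SC as well, with log2 fold changes of -3.39 ± 0.40 and -2.89 ± 0.49. H2-M5 instead was higher in RS, at 5.09, 5.06, 3.31 and 3.04 CPM against 0.22, 0, 0.435 and 0.412 CPM in SG (4.62 ± 0.61). Tapbp was higher in late SC than in SG, at 53.4, 59.5, 52.7 and 59.7 CPM against 27.5, 24.8, 35.2 and 28 CPM (1.53 ± 0.15).

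Within the stages, single clusters carried the peaks. The early SC cluster with Prdm9 and Dmc1 among its leading genes, both genes of meiotic recombination, had H2-K1 at 565, 463, 519.8 and 502 CPM, H2-D1 at 153, 133, 130.3 and 159 CPM and H2-Ab1 at 44.9, 41.4, 46.6 and 43.1 CPM in the control mice. The early SC cluster of Rhox13 and Esx1 had H2-K1 at 86.8 ± 14.8 CPM and H2-Ab1 at 3.07 ± 0.949 CPM, and that of Meiob and Mnd1 had H2-K1 at 184 ± 14 CPM and H2-Ab1 at 12.2 ± 1.79 CPM (SD, n = 4). The Prdm9 cluster thus lay above both for each of the 4 mice in H2-K1. Its B2m was 17.3 ± 3.3 CPM. In the SG cluster of Ret and Glis3, genes of undifferentiated SG, H2-Q2 was at 9.14 ± 2.34 CPM and H2-M3 at 13.9 ± 4.1 CPM, against 3.25 ± 0.946 and 2.05 ± 0.261 CPM in the other large SG cluster. H2-DMb1 was at 63.6 ± 4.04 CPM in the late SC cluster of Pou5f2 and 32.3 ± 2.62 CPM in that of Piwil1. H2-DMa was at 56.8 ± 12.1, 48.5 ± 3.06 and 20.3 ± 2.38 CPM in the 3 RS clusters. The lowest of these was the deep cluster led by Kcne3 and Tssk4 (median 34706.5 UMIs), and the other RS clusters were shallow (medians of 3625 and 2701 UMIs). The clusters were made from other genes of the same cells, so no test is given.

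**Figure D4:**
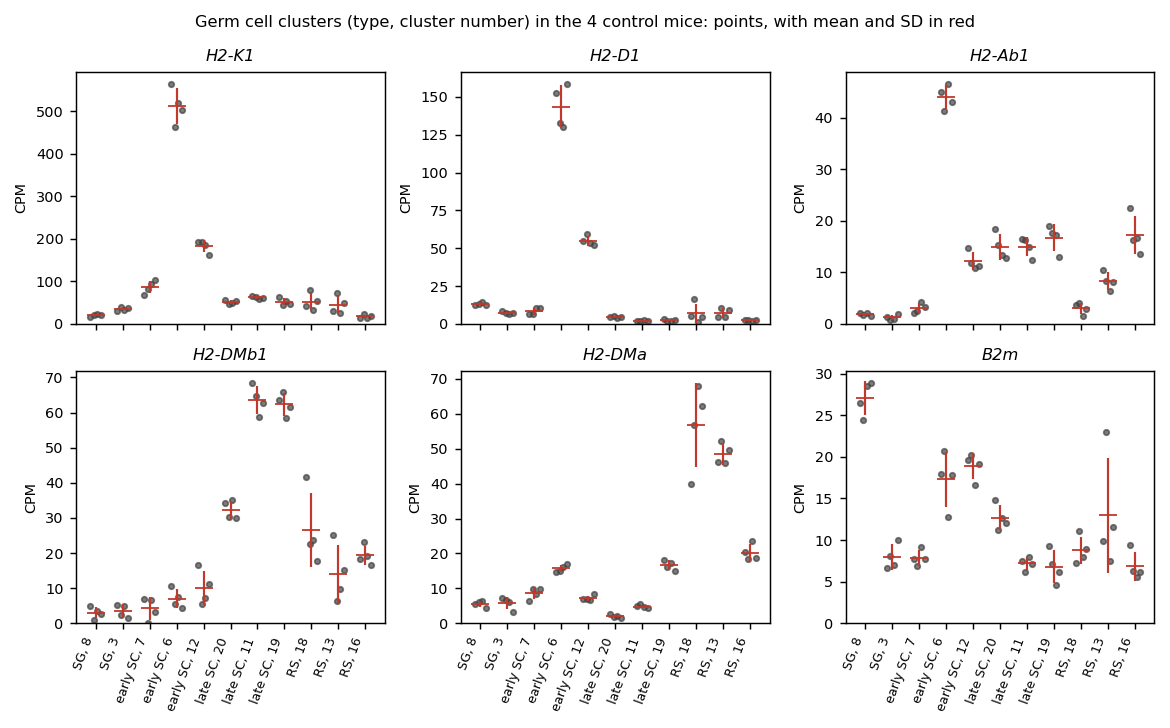
Levels in CPM of H2-K1, H2-D1, H2-Ab1, H2-DMb1, H2-DMa and B2m in 11 germ cell clusters of the control mice, labelled by type and cluster number, with 1 point per mouse and the mean and SD in red. H2-K1, H2-D1 and H2-Ab1 peak in early SC cluster 6, H2-DMb1 in late SC clusters 11 and 19, and H2-DMa in RS clusters 18 and 13, which are shallow (medians of 3625 and 2701 UMIs).

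Other genes of antigen presentation, 33 that are not members, all passed the filter and were tested in the same fits. Between immune and other somatic cells 13 of the 33 were higher and 0 lower, where 10.5% of all genes were higher and 13.4% lower. Among them were Cd86, a costimulatory ligand of T cells (11.09 in log2), Ctss, the protease that trims Cd74 (9.65), and March1, which marks class II molecules for removal (6.84). Between other somatic and germ cells 18 were higher and 2 lower (28.6% and 31.9% of all genes), with Psmb8, a subunit of the immunoproteasome, at 7.11 and March1 at -2.14. Endothelial cells had 6 higher and 1 lower (6.18% and 1.76% of all genes), led by Psmb8 (4.60) and Psmb9 (3.46), with Ifi30, a lysosomal reductase, lower (-2.87). The second immune type had 2 lower than macrophages, Fcgrt (-2.65) and the protease Lgmn (-1.97), and 0 higher, where 1.27% and 0.517% of all genes were. In these 2 fits endothelial cells and macrophages were 1 mouse each. With at least 5 cells and all 4 mice, 32 of the 33 passed, and endothelial cells again had 6 higher and 1 lower (7.54% and 9.13% of all genes), whereas the second immune type had 4 higher and 3 lower (3.83% and 2.09%), with Fcgrt at -2.45 and Lgmn at -1.73. In late SC against SG 3 were higher and 21 lower (24.9% and 35.2% of all genes), led by the proteasome activator genes Psme2 (-5.77) and Psme1 (-5.76). In RS against SG 5 were higher and 20 lower (36.4% and 31.4% of all genes).

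The genotypes were compared next, to ask whether germline loss of NELF-B or TDP-43 went with a change of MHC genes. At the same threshold and with the main settings, edgeR called no member for either cKO in any group of cells fitted. These groups were immune cells, the second immune type, macrophages, the 5 other somatic types, SG and early SC together, and whole libraries. Some alternative settings of edgeR did call members, and they are given with the dependence on the processing at the end. Late SC and RS were not fitted. In the TDP-43 cKO mice 1 to 14 and 1 to 59 of them were left after germ cells with a Tardbp UMI had been dropped. Both cKO comparisons share the same 4 control mice. Of all genes tested, 0% were called in the same fits, except 0.00503% (NELF-B cKO) and 0.739% (TDP-43 cKO) in SG and early SC together. The members that passed the filter numbered 21 in all immune cells, 21 in the second immune type, 17 in Leydig, 12 in interstitial and 6 in myoid cells. DESeq2 called 0 in each of these for either cKO. Macrophages had 1 control mouse of 20 or more cells. With at least 5 cells and all 4 control mice 0 of 20 were called in macrophages. Endothelial cells could be fitted only in that way, and 0 of 13 were called.

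In immune cells the class II levels of the cKO mice lay mostly in the upper part of the wide control range or above it, with no call. Cd74 stood at 4108, 1262, 8340.5 and 8157 CPM in the myeloid cluster of the control mice, 8402 and 11217 CPM in NELF-B cKO and 11158, 10751 and 8009 CPM in TDP-43 cKO. In the second immune type its log2 fold change was 0.81 ± 0.50 for NELF-B cKO (edgeR adjusted p = 0.71) and 0.89 ± 0.45 for TDP-43 cKO (edgeR adjusted p = 0.33). Ciita stood at 16, 5.5, 27 and 36.8 CPM in control, 53.8 and 64.2 CPM in NELF-B cKO and 45.7, 35.6 and 9.99 CPM in TDP-43 cKO. Both NELF-B cKO values were above all control values, but the log2 fold change of 1.54 ± 0.60 had an adjusted p of 0.67 (edgeR). The share of cells of the myeloid cluster with a class II UMI, at 2000 UMIs per cell, was 81.5% in control, 95% in NELF-B cKO (190 of 200) and 96.2% in TDP-43 cKO (328 of 341). Without control replicate 2, at 53.4%, the lowest control mouse had 86.8%, and the cKO mice ranged from 94.4% to 98.5%. Control replicate 4, at 96.8%, lay within the range of the cKO mice, and replicate 3, at 93.2%, just below it. No test of this share was made.

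In Sertoli cells of TDP-43 cKO 4 of 19 genes passed at an adjusted p under 0.05 alone, 3 higher and 1 lower, where 13.3% of all genes did so (4.17% higher and 9.15% lower). B2m stood at 53.3, 48.9, 42.5 and 58.4 CPM in control, 67.5 and 131 CPM in NELF-B cKO and 135, 125 and 88.2 CPM in TDP-43 cKO. All cKO values were above all control values, with log2 fold changes of 1.00 ± 0.27 for NELF-B cKO (edgeR adjusted p = 0.34) and 1.22 ± 0.24 for TDP-43 cKO (edgeR adjusted p = 0.035). H2-D1 stood at 27.1, 22.9, 24.1 and 46.1 CPM, 41.5 and 72.8 CPM and 75.3, 96.6 and 65 CPM in the same groups, with 1.40 ± 0.29 for TDP-43 cKO (edgeR adjusted p = 0.035). Cd74, at 20.1, 6.72 and 10.2 CPM in TDP-43 cKO against 3.61, 2.83, 4.48 and 5.76 CPM in control, had 1.59 ± 0.42 (edgeR adjusted p = 0.041). The heavy chain H2-K1 was not called, with 0.23 ± 0.13 (edgeR adjusted p = 0.28). Other values moved with the genotype: the median Sertoli cell held 2083 to 2699.5 UMIs in control and 23301, 6729 and 17954 UMIs in TDP-43 cKO, and B2m in free RNA stood at 19.3 to 29.5 CPM in control, against 197.2, 57.6 and 55.9 CPM in TDP-43 cKO. With a free RNA estimate subtracted, the log2 fold change was 1.14 for B2m (edgeR adjusted p = 0.024), 1.31 for H2-D1 (edgeR adjusted p = 0.029) and 1.95 for Cd74 (edgeR adjusted p = 0.22). That estimate used the share of free RNA found in the germ cells of each mouse, and the share in Sertoli cells was not measured. The part of free RNA in the Sertoli cell differences was thus not tested. The Sertoli cells also came from 3 clusters that the genotypes filled unequally. A shallow cluster (median 2099 UMIs) gave 56.3% to 75.5% of them in the control mice and 31.3% to 45.5% in TDP-43 cKO, and a deep cluster (median 35533.5 UMIs) gave 10.4% to 32.3% and 46.5% to 64.2%. Within the deep cluster B2m stood at 77.2, 56.4, 41.7 and 65 CPM in control and 137, 131 and 91 CPM in TDP-43 cKO, and H2-D1 at 36.7, 24.5, 25.2 and 52.7 CPM against 76, 98.8 and 66.2 CPM. Within the shallow cluster B2m stood at 32.4 to 44.9 CPM in control and 60.6 to 109 CPM in TDP-43 cKO, and H2-D1 at 13 to 29.1 CPM and 44.3 to 84.2 CPM. Neither gene overlapped between control and TDP-43 cKO in either cluster, while Cd74 and H2-K1 overlapped in the deep cluster and not in the shallow one. The part of depth within a cluster was not tested.

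H2-DMb1 was lower in TDP-43 cKO at this second threshold. In SG and early SC together it stood at 8.98, 2.95, 5.87 and 5.76 CPM in control, 3.16 and 1.02 CPM in NELF-B cKO and 0.316, 0.777 and 0.564 CPM in TDP-43 cKO. All TDP-43 cKO values were below all others, with a log2 fold change of -3.36 ± 0.56 (edgeR adjusted p = 0.011), and for NELF-B cKO it was -1.54 ± 0.57 (edgeR adjusted p = 0.17). It was 1 of 24 genes at an adjusted p under 0.05, where 16.1% of all genes were so called (4.89% higher and 11.2% lower). In Sertoli cells it stood at 26.2, 6.22, 6.71 and 8.78 CPM, 6.32 and 1.03 CPM and 0.428, 2.39 and 0.584 CPM in the 3 groups (-3.39 ± 0.88 for TDP-43 cKO, edgeR adjusted p = 0.04). It was at 3.27 to 9.65 CPM in control and 0.451 to 1.87 CPM in TDP-43 cKO in the deep Sertoli cluster, and at 14.5 to 43.2 CPM and 0 to 3.37 CPM in the shallow one. Free RNA moved the same way: its H2-DMb1 stood at 43.1, 33.0, 35.1 and 34.2 CPM in control, 33.0 and 13.6 CPM in NELF-B cKO, and 7.4, 14.2 and 4.50 CPM in TDP-43 cKO. So did the number of kept germ cells of the stage with the highest H2-DMb1. Late SC numbered 296 to 683 in the control mice, 438 and 28 in NELF-B cKO and 1 to 14 in TDP-43 cKO. The cKO numbers leave out the germ cells dropped because Nelfb or Tardbp was detected, whereas free RNA can also come from dropped cells. They can thus overstate how few late SC lay behind the free RNA of the cKO mice. With the free RNA estimate subtracted, the log2 fold change was -3.66 in SG and early SC (edgeR adjusted p = 0.13) and -4.20 in Sertoli cells (edgeR adjusted p = 0.065). For Sertoli cells too the share subtracted was that of germ cells.

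**Figure D5:**
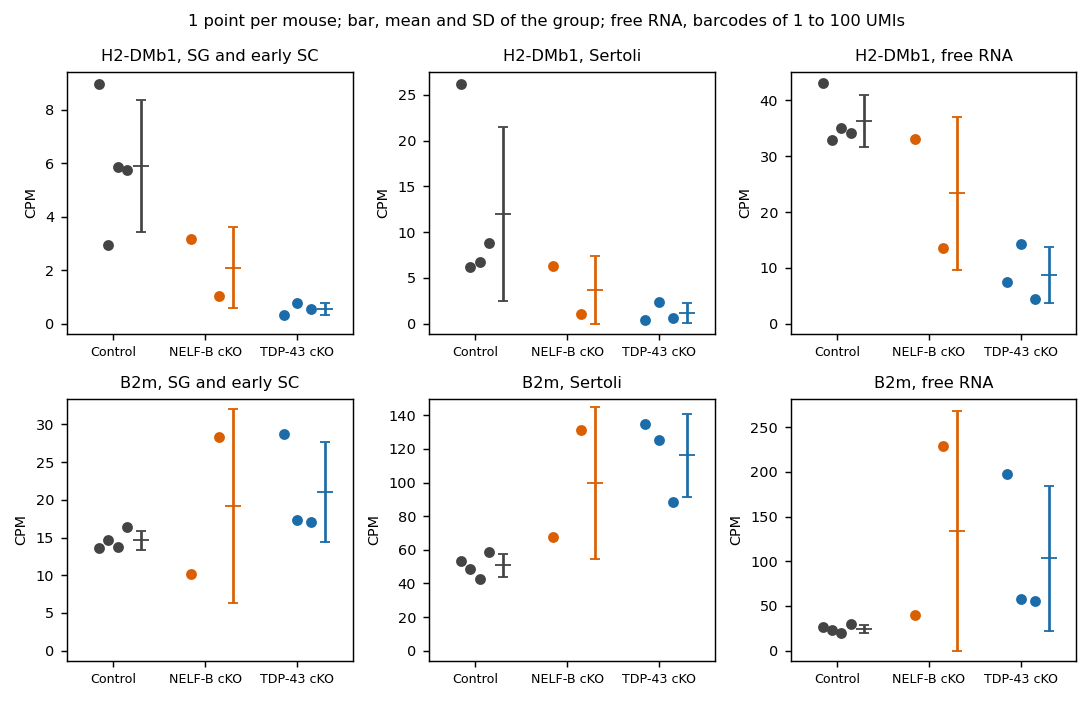
Levels in CPM of H2-DMb1 (top) and B2m (bottom) in SG and early SC, in Sertoli cells and in free RNA, 1 point per mouse, with the mean and SD of each genotype beside the points. The TDP-43 cKO mean of H2-DMb1 is the lowest in each of its 3 panels, and all TDP-43 cKO points of B2m lie above control in each panel, by the least in SG and early SC (17 to 28.7 CPM against at most 16.4 CPM).

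The effect of TDP-43 cKO on H2-DMb1 differed between immune and other somatic cells. In immune cells it stood at 94.9, 41.8, 141 and 169 CPM in control and 139, 209 and 119 CPM in TDP-43 cKO, which overlap, and in other somatic cells at 12.1, 4.7, 7.37 and 6.52 CPM and 0.961, 2.37 and 0.815 CPM, which do not. The interaction, the log2 fold change in immune minus that in other somatic cells, was 3.07 ± 0.42 (edgeR adjusted p = 0.0027). It was the only member of the 26 that passed to be called, where 0.0348% of all genes were called (0.00581% higher and 0.029% lower), and DESeq2 called it as well. The 9 fits that each left out 1 mouse also called it, with 2.72 to 3.75. Free RNA held H2-DMb1 at 4.50 to 14.2 CPM in TDP-43 cKO and 33.0 to 43.1 CPM in control, and all of these fits share that difference. The interaction was not fitted with free RNA subtracted, so the part of free RNA in it was not tested. For NELF-B cKO edgeR called 0 of 26, and DESeq2 called 0.

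In early SC the class I heavy chains of TDP-43 cKO lay above the control range, which is given as values because these cells were fitted only together with SG. H2-D1 stood at 52, 63, 58.7 and 68.1 CPM in control, 37.9 and 70.3 CPM in NELF-B cKO and 194, 107 and 109 CPM in TDP-43 cKO. H2-K1 stood at 209, 224, 243 and 228 CPM, 279.6 and 398 CPM and 502, 310.1 and 322 CPM in the same groups, and both cKOs were above control. Within the Prdm9 cluster H2-D1 stood at 153, 133, 130.3 and 159 CPM in control, 71 and 138 CPM in NELF-B cKO and 338, 193 and 204 CPM in TDP-43 cKO, the last without overlap. H2-K1 stood at 565, 463, 519.8 and 502 CPM, 521 and 757 CPM and 799.6, 614 and 570.2 CPM there. In SG, H2-K1 stood at 28.1, 33.8, 30.1 and 31.1 CPM in control and 29.3, 29.8 and 29.9 CPM in TDP-43 cKO, which overlap. The NELF-B cKO mice lay above all control mice there, with 501 and 582 UMIs of H2-K1 among 10159025 and 12411061 UMIs. For SG and early SC together the log2 fold change of TDP-43 cKO was 0.53 ± 0.23 for H2-D1 (edgeR adjusted p = 0.14) and 0.11 ± 0.14 for H2-K1 (edgeR adjusted p = 0.61).

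Other values moved with these heavy chain levels. B2m in early SC stood at 13 to 16.8 CPM in control and 41.4, 25.9 and 22 CPM in TDP-43 cKO. In free RNA H2-D1 stood at 16.3 to 25 CPM in control and 182, 80.6 and 66.8 CPM in TDP-43 cKO, and H2-K1 at 63.7 to 93.8 CPM and 209, 184 and 185 CPM. With the free RNA estimate subtracted, the log2 fold change in SG and early SC together was 0.33 for H2-D1 (edgeR adjusted p = 0.39) and -0.03 for H2-K1 (edgeR adjusted p = 0.92). Among the kept cells, the genotypes also filled different early SC clusters. The cluster of Meiob and Mnd1 held 128 to 415 cells in the control mice and 1, 26 and 21 in TDP-43 cKO, whereas a cluster with Ccnb3 among its leading genes held 0 to 18 and 23, 138 and 153. In the latter H2-D1 stood at 173, 124 and 114 CPM in TDP-43 cKO. In the cluster of Rhox13 and Esx1, H2-D1 stood at 6.34 to 10.6 CPM in control and 66, 24.9 and 16.7 CPM in TDP-43 cKO, which do not overlap, whereas H2-K1 overlapped.

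In whole libraries, where fewer cells of a type and less RNA per cell cannot be told apart, MHC levels and the makeup of the testis both differed between the genotypes. B2m stood at 39.3, 31.2, 29.9 and 35.3 CPM in control, 53.4 and 273 CPM in NELF-B cKO and 233, 72.3 and 69.6 CPM in TDP-43 cKO. Cd74 stood at 13.9, 6.67, 22.9 and 24.4 CPM, 25.8 and 154 CPM and 143, 50.1 and 57.7 CPM, and H2-DMb1 at 47.8, 35.3, 37.3 and 34.6 CPM, 30 and 11.5 CPM and 4.99, 12.8 and 8.76 CPM. B2m and Cd74 were thus higher in every cKO library than in any control, and H2-DMb1 lower. edgeR called 0 of 29 genes at the main threshold for either cKO. DESeq2 called 0 (NELF-B cKO) and 6 (TDP-43 cKO) of the 39 it tested, where it called 0.385% and 29.7% of all genes. At an adjusted p under 0.05 alone, 15 of 29 passed for TDP-43 cKO, 12 higher and 3 lower, where 51% of all genes did (23.6% higher and 27.4% lower). The 3 lower genes were H2-DMb1 (-2.45 ± 0.42), H2-DMb2 (-1.71 ± 0.38) and H2-M5 (-1.33 ± 0.38).

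The cells behind these UMIs shifted with genotype. Immune cells made up 2.6% to 4.72% of the kept cells in the control mice, 4.17% and 10.7% in NELF-B cKO, and 9.63%, 4.82% and 6.98% in TDP-43 cKO. They gave 48.1% to 82.9% of the UMIs of Cd74, H2-Aa, H2-Ab1 and H2-Eb1 in the control mice, 85.3% and 96.5% in NELF-B cKO, and 95.5%, 95.5% and 96.0% in TDP-43 cKO. Germ cells gave 33.4% to 59.2% of the UMIs of B2m, H2-K1 and H2-D1 in the control mice, 31.7% and 8.47% in NELF-B cKO, and 6.45%, 22.1% and 19.3% in TDP-43 cKO. The germ cells of the 4 control mice held 3531 UMIs of H2-Ab1, 332 of Cd74, 147 of H2-Eb1 and 80 of H2-Aa. Dropping the germ cells in which the targeted gene was detected lowers the germ cell numbers of the cKO mice, so these shares are descriptions of the kept cells.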

How the data were processed

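The deposited matrices hold unnormalized counts, one UMI total for each gene in each barcode, generated by the authors from 3′ droplet libraries, which were demultiplexed with Cell Ranger 6.1.1 and mapped to mm10 with Cell Ranger 7.0.0 (the submitters' processing notes also name Seurat 4.2.0 and DESeq2 1.36). Whether intronic reads were counted is not given in the sources used here. The 41 genes, the other gene lists and the comparisons were chosen with earlier results of these data known.

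Barcodes with more than 1000 genes and less than 10% mitochondrial UMIs were clustered with scanpy 1.11.5 (3000 variable genes, 40 components, 20 neighbours, Leiden resolution 0.8), without the 41 genes, Nelfb and Tardbp. A cluster was named where 3 or more markers of a type stood out by 2-fold, its median depth was at least 2000 UMIs and no mouse gave over 80% of it. No doublet caller was run, and a cluster of mixed markers stayed unnamed. UMIs were summed per mouse and type where a mouse had at least 20 cells and fitted with edgeR 4.0.16 (quasi-likelihood, TMM, filterByExpr), with the mouse as a block between cell types. DESeq2 1.42.0, DESeq2 size factors, no low-count filter, other clusterings, an adjusted p of 0.05 and leaving out each mouse were alternatives. A minimum of 5 cells, the myeloid cluster alone and subtraction of free RNA were added after the data had been seen. The share of free RNA was estimated from the reference genes in the germ cells of each mouse and used for all cell types. Each replicate is 1 mouse. The main genotype fits did not use the replicate numbers as pairs. Mice of different genotypes with the same number had correlations of deviations from -0.757 to 0.516. Mice of unlike numbers were not compared, so pairing was not tested. The fits were tested on simulated data.

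The genes named were the classical class I, loading and class II genes, any other member with a control mean of 10 CPM or more in a cell type, and any member called. Of the pathway genes, at most 3 called ones per comparison were named.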

Additional observations from a re-analysis of the deposited data

Results flagged for a closer look

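The effect of TDP-43 cKO on H2-DMb1, a beta chain of the class II peptide editor, differed between immune and other somatic cells by a test of the difference itself. The log2 fold change in immune cells was higher than that in other somatic cells by 3.07 (SE 0.42, 4 control and 3 TDP-43 cKO mice, edgeR adjusted p = 0.0027). In other somatic cells all 3 TDP-43 cKO mice were below all 4 control mice, and in immune cells the groups overlapped. Free RNA held less H2-DMb1 in TDP-43 cKO as well (4.50 to 14.2 CPM against 33.0 to 43.1 CPM in control), and its part in the difference was not tested.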

How the results depend on the processing

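Counts of members called, shares of cells and ratios of germ cell level to free RNA were set against alternatives. Of these, 437 alternative values stayed within 1.5 times the reported value or within the SD between mice, and 29 moved. Many of the 437 were genotype counts of 0 that stayed at 0, so the tally does not measure how firm a result is. Of the values of named genes 1652 stayed on the same side of the main threshold, 44 lost a call and 54 gained one. A change of direction was counted only where either fit called the gene, and none was seen there. Second immune type against macrophages called 8 with all 9 mice. For TDP-43 cKO, where 0 were called, SG and early SC gave 1 with DESeq2, with cells of at least 2000 UMIs, with the members kept in the clustering, without the filter on low counts and at an adjusted p of 0.05. Sertoli cells gave 3 with DESeq2 and 4 at that p, and whole libraries gave 6 and 15 in the same order. At that p 16.1% of all genes were called in SG and early SC, 13.3% in Sertoli cells and 51% in whole libraries. DESeq2 called 29.7% of all genes in whole libraries. Sertoli cells also gave members without the filter. Without the filter, NELF-B and TDP-43 cKO gave 4 and 3 in macrophages and 3 and 2 in the second immune type, and the NELF-B interaction gave 5. Leaving out 1 mouse gave members in some fits of SG and early SC, Sertoli cells and whole libraries for TDP-43 cKO. They were most without either NELF-B cKO replicate. The NELF-B interaction gave members without NELF-B cKO replicate 1 and without TDP-43 cKO replicate 1. The shares of all genes called without the filter, with all 9 mice or with 1 mouse left out are not given here. These changes thus say nothing particular of MHC genes. The cause was not tested. Unthinned, the class II shares were 64.9% and 69.3% in macrophages and 98.0% and 98.0% in the myeloid cluster of NELF-B and TDP-43 cKO, and 7.41% in the T and NK cluster of TDP-43 cKO, because deeper cells hold more UMIs.

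With the replicate block the genotype counts stayed at 0. Without the mouse as a replicate block, the member counts of late SC against SG, RS against SG and immune against germ cells stayed the same. Those of endothelial cells, the second immune type, immune against other somatic cells and other somatic against germ cells were slightly lower. The block could not be fitted in macrophages and myoid cells, nor macrophages without control replicate 1 and endothelial cells without control replicate 4. Over all genes, DESeq2 called 1382 for TDP-43 cKO in SG and early SC where edgeR called 147, 1732 in Sertoli cells and 8944 in whole libraries where edgeR called 0. In simulated data edgeR recovered 60.6% of genes changed by 1.5 in log2 in Sertoli cells and 95.5% of those changed by 3. The changed genes were drawn from the more abundant ones, and each unchanged gene had the same mean share in every mouse. The simulation held no genotype differences in free RNA or in the makeup of a cell type. It thus does not give the power of the real fits. Few cells are a limit in macrophages, endothelial and myoid cells, with 9 to 43, 10 to 25 and 10 to 31 per control mouse.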
